A study of Mus musculus with 16 samples.

Results

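Replacing the B6 maternal pronucleus with a C3H one was followed at the two-cell stage through 2 groups of untreated mouse embryos. BBB embryos were B6 throughout, in ooplasm and in both pronuclei. BCB embryos differed from them in the maternal pronucleus, which came from C3H, and kept a paternal pronucleus and an ooplasm of B6. B6 and C3H are inbred mouse strains. The comparison took the 8 untreated arrays, 4 of each group, out of the 16 arrays of the study. The other 8 arrays, 4 of each kind, came from embryos given α-amanitin, which the labels spell α-amantin, and they serve here as the same comparison with RNA polymerase II inhibited. The labels do not say how many embryos an array pooled, or whether the 4 samples of a group came from separate experiments, so p-values measure the spread between these samples, which may be technical. Each value is an intensity, the brightness of a probe set (a group of short probes for one transcript), and it sums the transcripts of both parental alleles. In pooled embryos, fewer embryos with a transcript and less of it in each embryo cannot be told apart.

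The mouse embryo starts its own large-scale transcription at the two-cell stage, while mRNA stored by the oocyte is being degraded. An array of two-cell embryos therefore reads oocyte transcripts, which here came with B6 ooplasm in both groups, together with transcripts made from the embryo's own chromosomes. Alpha-amanitin stops RNA polymerase II and so leaves mostly the stored RNA. Strains of mice differ in the sequence and the number of copies of many genes, among them the major histocompatibility complex (MHC), whose class I genes encode the molecules that present peptides on the cell surface.

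Few genes differed between the 2 kinds of embryo, and most of the large differences were rises in BCB. Of 15257 genes tested, 59 were higher in BCB, which is 0.387%, and 41 were lower, which is 0.269% (limma, Benjamini-Hochberg adjusted p under 0.05). Of the 59, 39 rose at least 2-fold and 5 at least 8-fold, led by the adenylyl cyclase gene Adcy2 and by Pdgfrl, which encodes a protein resembling a growth factor receptor. Of the 41, 7 fell at least 2-fold, led by the MHC class I gene H2-Q5 and by Mbnl3, a regulator of splicing. All differences below are log2 differences of intensity + 16, BCB minus BBB, which understate the change of dim genes. The median difference was -0.01 over all genes, 1.18 over the genes called higher and -0.75 over those called lower. In all 100 called genes the 4 BCB arrays lay wholly above or wholly below the 4 BBB arrays, and over all genes tested 2.86% lay wholly above and 3.57% wholly below.

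Leaving out 1 array changed the number of falls more than the number of rises. The rises numbered between 44 and 58 in such fits. The falls numbered 23 without BBB array 3, 21 without BBB array 4, 25 without BCB array 2 and 23 without BCB array 3. The split also moved with the processing. Falls outnumbered rises, by 109 to 98, with a pseudocount of 64, by 124 to 102 in a fit of the 8 untreated arrays alone and by 123 to 118 with array weights. With arrays scaled to the hybridization controls, which were 0.12 lower on the log2 scale in BCB, 64 genes were higher and 10 lower, and with arrays scaled to the poly-A controls, which were 0.11 higher in BCB, 35 were higher and 21 lower.

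**Figure D1:**
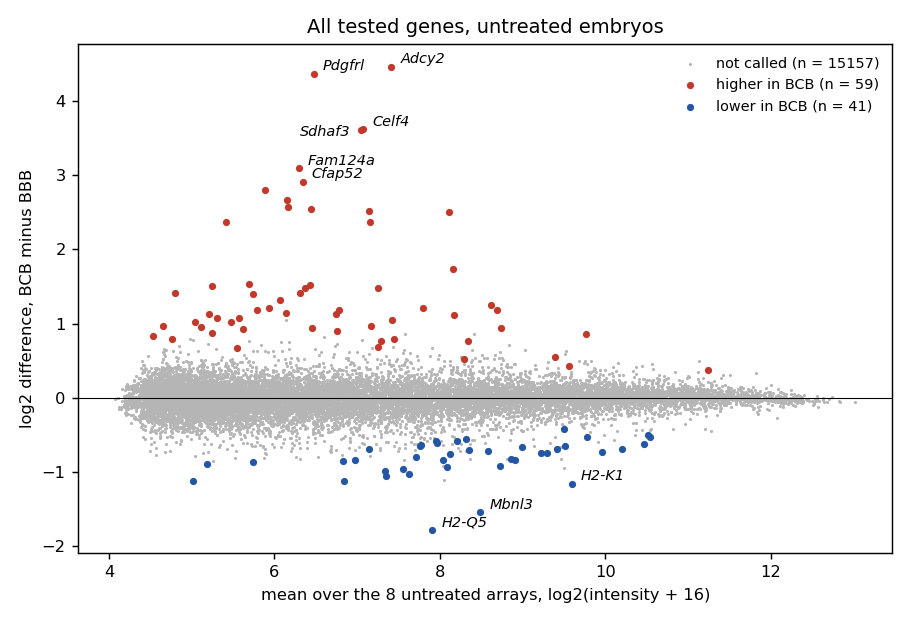
Each point is one of 15257 tested genes, with its mean over the 8 untreated arrays as log2(intensity + 16) on the x axis and its log2 difference, BCB minus BBB, on the y axis. The 59 genes called higher are red and reach 4.45, and the 41 called lower are blue and reach -1.78.

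Promoter windows of 4 of these genes are given first. Adcy2 and Sdhaf3 are shown as the largest rises with a matched promoter. Fam221a is shown because its chromosomal neighbour was also called higher, and H2-K1 as the class I gene that fell from the highest intensity. Each window is the 250 bases before the start of transcription in RefSeq (mouse assembly GRCm38.p6), read on the gene's strand, 5′ to 3′. Capitals mark CCAAT (the CCAAT box) and GGGCGG (the GC box) on either strand, 2 motifs bound by widely expressed transcription factors. The Adcy2 window lies at chr13:68999542-68999791 on the minus strand, that of Sdhaf3 at chr6:6955768-6956017 on the plus strand, that of Fam221a at chr6:49367489-49367738 on the plus strand and that of H2-K1 at chr17:34000348-34000597 on the minus strand.
Adcy2: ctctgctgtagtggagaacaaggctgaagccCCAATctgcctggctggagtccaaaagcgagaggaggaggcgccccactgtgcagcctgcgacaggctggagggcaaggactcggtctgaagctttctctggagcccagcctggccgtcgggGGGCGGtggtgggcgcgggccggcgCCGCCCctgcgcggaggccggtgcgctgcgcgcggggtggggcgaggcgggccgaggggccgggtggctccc
Sdhaf3: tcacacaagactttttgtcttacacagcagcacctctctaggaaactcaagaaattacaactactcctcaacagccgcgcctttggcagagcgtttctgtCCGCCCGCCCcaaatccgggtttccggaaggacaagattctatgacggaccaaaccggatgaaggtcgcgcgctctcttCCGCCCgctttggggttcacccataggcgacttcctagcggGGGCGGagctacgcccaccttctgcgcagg
Fam221a: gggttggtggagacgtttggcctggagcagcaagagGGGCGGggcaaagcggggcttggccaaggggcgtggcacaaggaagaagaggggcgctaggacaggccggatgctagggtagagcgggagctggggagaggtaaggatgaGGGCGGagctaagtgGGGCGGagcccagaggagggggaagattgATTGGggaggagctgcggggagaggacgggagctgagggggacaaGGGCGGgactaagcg
H2-K1: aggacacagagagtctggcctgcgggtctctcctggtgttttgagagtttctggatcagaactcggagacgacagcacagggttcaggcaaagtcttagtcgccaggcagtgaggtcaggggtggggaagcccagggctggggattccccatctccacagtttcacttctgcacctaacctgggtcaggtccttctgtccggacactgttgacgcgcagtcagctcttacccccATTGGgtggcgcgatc

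The Adcy2 window held 1 CCAAT and 2 GGGCGG matches, the Sdhaf3 window 4 GGGCGG, 2 of them overlapping, and the Fam221a window 1 CCAAT and 4 GGGCGG. The H2-K1 window held 1 CCAAT and no GGGCGG, and the window of a second RefSeq start of H2-K1, at chr17:34000334-34000583, held 2 CCAAT. Of all 32851 windows of this length in the RefSeq table, 33.8% held CCAAT and 32.7% held GGGCGG. A promoter was matched for 10 of the 14 largest rises and for 10 of the 14 largest falls. No window of these 20 genes held TATAAA (the TATA box, in 12.4% of all windows) or the Dux motif (in 0.177%). None held an exact match to the fixed pattern searched for the interferon-stimulated response element (in 2.98%). Variants of that element were not searched for. Whether the H2-K1 window or any other lacks such an element therefore cannot be read from this search. Both strands were searched, and 1 of 2 windows of Frrs1 held GGATTA (bound by Obox proteins, in 6.25%). These matches describe letters in a window and are not binding sites.

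Most genes with the largest rises were close to the lower end of the intensity scale in BBB and well measured in BCB. Adcy2 encodes an enzyme that makes the second messenger cyclic AMP. Its intensity was 17.5, 21.1, 17.5 and 26.1 on the 4 BBB arrays and 603, 917, 900.4 and 750.1 on the 4 BCB arrays. The groups did not overlap, and the difference was 4.45 (SE 0.14, adjusted p = 1.66e-15). Pdgfrl read 6.6, 6.2, 0.4 and 2 in BBB, below the 40th percentile of each array, which lay between 11.2 and 13 on the BBB arrays. In BCB it read 262.5, 487, 466 and 375, and the difference was 4.36 (SE 0.18, adjusted p = 5.21e-14). Celf4 encodes a protein that binds RNA and acts in the brain on splicing and translation. It read 14.4, 30.6, 20.3 and 26.2 in BBB and 356, 562, 454 and 472 in BCB, a difference of 3.62 (SE 0.23, adjusted p = 3.62e-10). Sdhaf3 helps to assemble succinate dehydrogenase, the enzyme shared by the citric acid cycle and the respiratory chain. Its values were 24.9, 19.3, 17.5 and 27.3 in BBB and 335, 533, 453 and 491 in BCB, with a difference of 3.60 (SE 0.15, adjusted p = 1.66e-13).

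A next set of rises lay between 2.5 and 3.1 on the log2 scale. Fam124a read 12, 5.2, 15.8 and 11.5 in BBB against 152, 248, 232 and 234 in BCB, with a difference of 3.09 (SE 0.17, adjusted p = 2.12e-11). Cfap52 belongs to the proteins of cilia and flagella. Its values were 14.4, 6.2, 25.7 and 11.1 in BBB and 157, 189, 237 and 254 in BCB, and its difference was 2.91 (SE 0.21, adjusted p = 2.20e-09). Tmed11 belongs to the p24 family of cargo receptors between the endoplasmic reticulum and the Golgi. In BBB it read 5.7, 4.6, 7.2 and 8.4, below the 40th percentile on each array, and in BCB 92.3, 189.7, 129 and 166, a difference of 2.80 (SE 0.17, adjusted p = 2.32e-10). F8 encodes coagulation factor VIII. It rose from 12.6, 18.2, 18.3 and 3 to 93.4, 183.5, 219.7 and 182, a difference of 2.66 (SE 0.24, adjusted p = 1.75e-07). Ajap1, a protein of adherens junctions, rose from 10.2, 10.9, 13.4 and 21 to 82.4, 235, 169 and 189, by 2.56 (SE 0.22, adjusted p = 1.02e-07).

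Prkch, a protein kinase C, read 23.3, 20.6, 19.8 and 16.8 in BBB and 94.5, 230.4, 249 and 250.2 in BCB, a difference of 2.54 (SE 0.28, adjusted p = 7.45e-06). The lowest BCB value, that of array 1, was still above every BBB value. Mgll is the lipase that cleaves monoacylglycerols, the endocannabinoid 2-arachidonoylglycerol among them. Its intensity was 53.2, 34.1, 39.5 and 47.4 in BBB and 198.5, 371.5, 362 and 407 in BCB, and the difference was 2.52 (SE 0.21, adjusted p = 3.91e-08). Fam221a was the brightest in BBB of the 14 genes with the largest rises, at 92.5, 114, 108 and 89.7, and read 523, 706, 622 and 745 in BCB, a difference of 2.50 (SE 0.13, adjusted p = 1.30e-11). Frrs1 encodes a ferric chelate reductase, which reduces iron. It rose from 70.5, 40.1, 31.4 and 51 to 208.5, 374, 333 and 344, by 2.37 (SE 0.22, adjusted p = 3.36e-07). Mdga2 encodes a cell surface protein that regulates synapse formation. It read 2, 2.2, 0.8 and 7 in BBB, below the 40th percentile on each array, and 55.7, 90.8, 105 and 79.4 in BCB, a difference of 2.36 (SE 0.23, adjusted p = 7.44e-07).

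**Figure D2:**
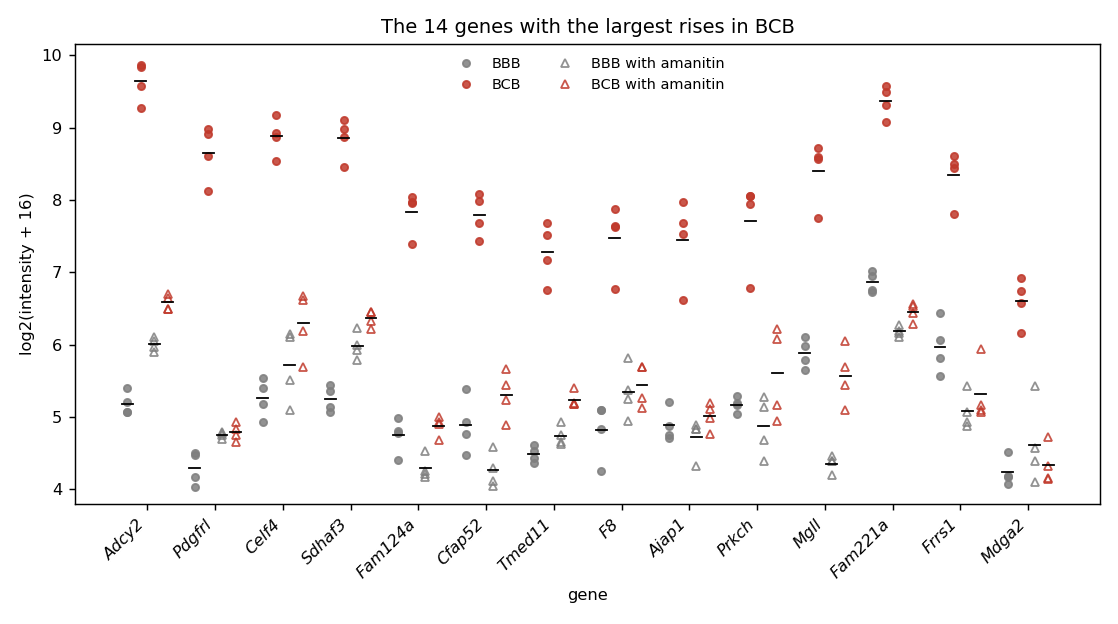
Points are single arrays of the 14 genes with the largest rises, as log2(intensity + 16) on the y axis: grey circles BBB, red circles BCB, open triangles the same kinds with α-amanitin, and black bars the mean of 4 arrays. In all 14 genes the 4 untreated BCB arrays lie above the 4 untreated BBB arrays, and the treated arrays of both kinds lie closer together, with the largest treated difference, 1.21, in Mgll.

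Of the 59 rises, 9 belonged to genes that read below 11.2, the lowest of the 40th percentiles, on all 4 BBB arrays. Besides Pdgfrl, Tmed11, Mdga2 and 2 clone names, these were Gria1, a glutamate receptor subunit, Msantd1, the cation channel Trpm3 and the cell adhesion protein Pcdh20. Their differences were 1.41, 1.02, 0.83 and 0.79 in that order. Gria1 read 1.3, 2, 0.2 and 0.7 in BBB and 24.7, 29.7, 34.2 and 29.1 in BCB. None of the 41 genes called lower read below 11.2 on all 4 BCB arrays, while Helz2 and Dnm1 did so on 3 of them. The number of all tested genes below 11.2 in either group was not counted, so these counts of rises and falls cannot be compared. Gria1, Trpm3 and Pcdh20 also read below the 40th percentile on every treated array. They therefore entered the test only through the 4 untreated BCB arrays, where they were higher. Pdgfrl, Msantd1 and Mdga2 reached that percentile on 2, 2 and 1 treated arrays and on no BBB array. Without the BCB arrays they too would not have been tested, and the same holds for Apof. Helz2 and Dnm1 would not have been tested without the BBB arrays, where they were higher. The genes outside the 14 largest rises and falls, other than Spen, Zfp618, Zfp33b and a fixed set of control genes, were chosen after their values were seen.

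Some called genes that act on lipids were put together after their values were seen, and the choice is not complete. Of these, Acss2, Gpat3, Alox5, Apof and Plin2 rose as Mgll did, while Apoc2 (-1.06) and Sgms1 (-0.65) fell. The share called among all such genes was not counted. Acss2, which makes acetyl-CoA from acetate, rose from 52.8, 37.3, 30.2 and 23 in BBB to 121, 164, 115 and 122 in BCB, a difference of 1.52 (SE 0.18, adjusted p = 2.55e-05). Its other tested probe set differed by 0.67 and was not called (adjusted p = 0.308). Gpat3 catalyses the first step of triacylglycerol synthesis. It rose from 250.1, 266, 188 and 265 to 541, 584, 657 and 586.5, by 1.24 (SE 0.17, adjusted p = 0.000164). Alox5, the lipoxygenase that starts leukotriene synthesis, differed by 1.21 (SE 0.21, adjusted p = 0.00263), and Apof, an apolipoprotein, by 0.95 (SE 0.19, adjusted p = 0.0121). Plin2, which coats lipid droplets, was much brighter, at 654, 633, 565 and 674 in BBB and 1013, 1234.5, 1191 and 1191 in BCB, with a difference of 0.86 (SE 0.13, adjusted p = 0.000421). In a list of 36 tested genes of cholesterol and fatty acid synthesis and lipid handling, Mgll and Plin2 were called higher and none lower, which is 5.56% beside 0.655% of all genes, with a median difference of -0.05 beside -0.01 for all genes. With arrays scaled to the poly-A controls, members called higher over all lists numbered 1 in place of 4.

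Among the other rises were Rbm45, a protein that binds RNA, at 1.41 (SE 0.20, adjusted p = 0.000213), and Uimc1, which brings the BRCA1 complex to damaged DNA, at 1.12 (SE 0.18, adjusted p = 0.00124). Spen, the repressor recruited by Xist in X inactivation, rose from 48.7, 47, 46.3 and 48 in BBB to 116, 105, 84.5 and 121.5 in BCB, by 0.94 (SE 0.16, adjusted p = 0.00218). With arrays scaled to the poly-A controls its difference was 0.83 and was not called (adjusted p = 0.158). Among 13 tested genes of X inactivation and dosage it was the 1 gene called, which is 7.69% beside 0.655% of all genes, and Xist itself differed by 0.00 (SE 0.19, adjusted p = 1). The zinc finger gene Zfp618 rose by 1.07 (SE 0.19, adjusted p = 0.0027) on its brightest probe set, and its 3 other tested probe sets differed by 0.33, 0.12 and 0.18 and were not called. Membrane and trafficking proteins that rose were Tbc1d12, of the family that acts on Rab proteins, by 1.73, Ap1s3, a subunit of a clathrin adaptor, by 1.54, Serinc5 by 1.48, the translocon subunit Sec61a2 by 1.05 and the receptor tyrosine kinase Alk by 1.18. Ipp, a gene known in mouse for a transcript started from a retroviral element of the intracisternal A particle family, read 135, 148, 127 and 112.5 in BBB and 353, 314, 329 and 295 in BCB, a difference of 1.21 (SE 0.13, adjusted p = 7.34e-06). The smallest rise called was in Map1lc3b, the autophagy protein LC3B, at 0.37 (SE 0.08, adjusted p = 0.0302).

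The largest falls were smaller than the largest rises, and 2 of the first 3 were in MHC class I genes. H2-Q5, an MHC class I gene, read 431, 447, 436 and 404 on the BBB arrays and 208, 84.3, 113.5 and 81.8 on the BCB arrays, a difference of -1.78 (SE 0.22, adjusted p = 5.30e-05). H2-K1, which encodes the classical class I heavy chain K, read 948, 1198, 1230.0 and 1218 in BBB and 628, 425, 484 and 489 in BCB. The groups did not overlap, and the difference was -1.16 (SE 0.20, adjusted p = 0.00246). Of the other tested probe sets of H2-K1, one was called lower, by -0.88 (adjusted p = 0.0493). The rest differed by -0.39 and -0.33 and were not called (adjusted p = 0.513 and 0.978). Ciita, the transactivator of MHC class II genes, fell from 157.5, 138, 146 and 166 to 81.8, 73.8, 72.4 and 83.8, a difference of -0.84 (SE 0.16, adjusted p = 0.00966). These 3 were the called members among 38 tested genes of the MHC and of antigen presentation, which is 7.89% beside 0.655% of all genes called in either direction. With a pseudocount of 1 none of the 3 was called, with adjusted p-values of 0.0541 for H2-K1, 0.0997 for H2-Q5 and 0.668 for Ciita. H2-Q5 also lost the call with averaged probe sets (adjusted p = 0.307). Ciita also lost the call with averaged probe sets (adjusted p = 0.0958), with either control scaling (0.0956 and 0.0797), without BBB array 4 (0.053) and without BCB array 3 (0.052). The MHC list was chosen with earlier results of these data known, and its median difference was -0.07.

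The MHC genes did not move one way. The class II genes H2-Ab1 and H2-Aa and the class I gene H2-Bl read higher in BCB without passing the threshold. H2-Ab1 differed by 0.82 (adjusted p = 0.189), H2-Aa by 0.75 (adjusted p = 0.099) and H2-Bl by 0.69 (adjusted p = 0.151). B2m, the light chain of class I molecules, differed by -0.31 (95% confidence interval -0.70 to 0.09), and Calr and Canx, chaperones of class I folding, by -0.08 and 0.11. Nlrc5, the transactivator of class I genes, differed by -0.22 (95% confidence interval -0.63 to 0.18). H2-Q10, another class I gene, differed by 0.03.

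Probe sets of the same class I gene disagreed in direction for H2-D1 and for H2-Q5. The brightest of 6 tested probe sets of H2-D1, which encodes the classical heavy chain D, differed by -0.16 and was not called. Another read 7.6, 20.1, 11.2 and 15.7 in BBB and 61.3, 129, 124 and 145 in BCB, a difference of 2.11 (adjusted p = 1.10e-06). One more was called higher, by 0.95, and one was called lower, by -0.68, at 117, 96.1, 99.4 and 120.2 in BBB and 70, 59.5, 54.2 and 61.1 in BCB. For H2-Q5 a second probe set was called in the opposite direction, by 0.84 (adjusted p = 0.0235), and averaged over its probe sets the gene differed by -0.47 and was not called. Class I genes are alike in sequence, so a probe set can read several of them. Whether base differences between C3H and B6 change the binding of these probes was not tested, since probe sequences were not used here. The same limit holds for every other probe set of this comparison, rises and falls alike.

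Mbnl3 had the second largest fall. It read 623, 501, 676 and 602 in BBB and 293, 148, 166 and 195 in BCB, a difference of -1.55 (SE 0.23, adjusted p = 0.000549). Averaged over all tested probe sets of the gene, its difference was -0.62 (adjusted p = 0.0554). The other tested probe sets of Mbnl3, which were dimmer, differed by -0.32 and 0.01 and were not called. Cypt3, a protein of the sperm head, read 224.5, 138, 131 and 135 in BBB and 58.9, 64.9, 56.4 and 66.1 in BCB, a difference of -1.13 (SE 0.15, adjusted p = 0.000127). Helz2, a helicase induced by interferon, was dim in both groups, at 50.8, 22.4, 29.4 and 28.6 in BBB and 13.9, 4.2, 5 and 2.6 in BCB, with a difference of -1.12 (SE 0.17, adjusted p = 0.000827). It was not in the list of interferon and nucleic acid sensing genes, of which 0 of 44 tested were called by limma and 4 had an unadjusted p under 0.05.

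Apoc2, the activator of lipoprotein lipase, fell from 234.5, 213, 212 and 221 to 176, 77.7, 76.2 and 83.3, a difference of -1.06 (SE 0.19, adjusted p = 0.00452). One BCB array, array 1, lay close to the BBB arrays. Calml4, a protein resembling calmodulin, fell from 301, 296, 218 and 255 to 148, 135, 117 and 95.9, a difference of -1.02 (SE 0.16, adjusted p = 0.000805). Slc40a1 encodes ferroportin, the iron exporter of the cell. It fell from 287, 240.3, 255 and 208 to 142, 109.7, 106 and 119, a difference of -0.96 (SE 0.15, adjusted p = 0.000832). Of 296 tested solute carrier genes, Slc40a1 and the steroid sulfate transporter Slc10a6 (-0.62) were called lower and none higher. That share is 0.676%, near the 0.655% of all genes.

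The remaining genes of the 14 largest falls were Rgs16, P2ry1, Dnm1, Pglyrp1 and Fam171b. Rgs16, which shortens signalling by G proteins, read 284, 298, 459.8 and 420.3 in BBB and 149, 204.5, 194 and 178 in BCB, a difference of -0.93 (SE 0.21, adjusted p = 0.0352). It lost the call in 6 of the 8 fits without 1 array, all but those without BBB array 1 or 2 (adjusted p = 0.0716 to 0.194). P2ry1, a receptor for ADP, fell from 49.6, 42.3, 64.2 and 73.4 to 22.5, 23.2, 23.1 and 26, a difference of -0.87 (SE 0.15, adjusted p = 0.00298). Dnm1, the dynamin best known from synaptic vesicle recycling, was dim, at 26.7, 29.9, 46.4 and 32.8 in BBB and 7.4, 7.3, 6.9 and 24 in BCB, a difference of -0.89 (SE 0.18, adjusted p = 0.013). Its call was lost without BBB array 3 and without BCB array 1, 2 or 3 (adjusted p = 0.0546 to 0.0856). The other tested probe set of Dnm1, which was dimmer, differed by 0.06 and was not called. Pglyrp1 binds the peptidoglycan of bacteria. It fell from 348, 279.6, 365 and 358 to 175, 246, 150.2 and 166.5, a difference of -0.83 (SE 0.17, adjusted p = 0.0198). The call was lost in 6 of the 8 fits without 1 array, all but those without BBB array 2 or BCB array 2 (adjusted p = 0.0574 to 0.118). Fam171b fell by 0.86 (SE 0.17, adjusted p = 0.0138), and lost the call without BBB array 1 or 4 or BCB array 3 (adjusted p = 0.0745 to 0.0991).

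**Figure D3:**
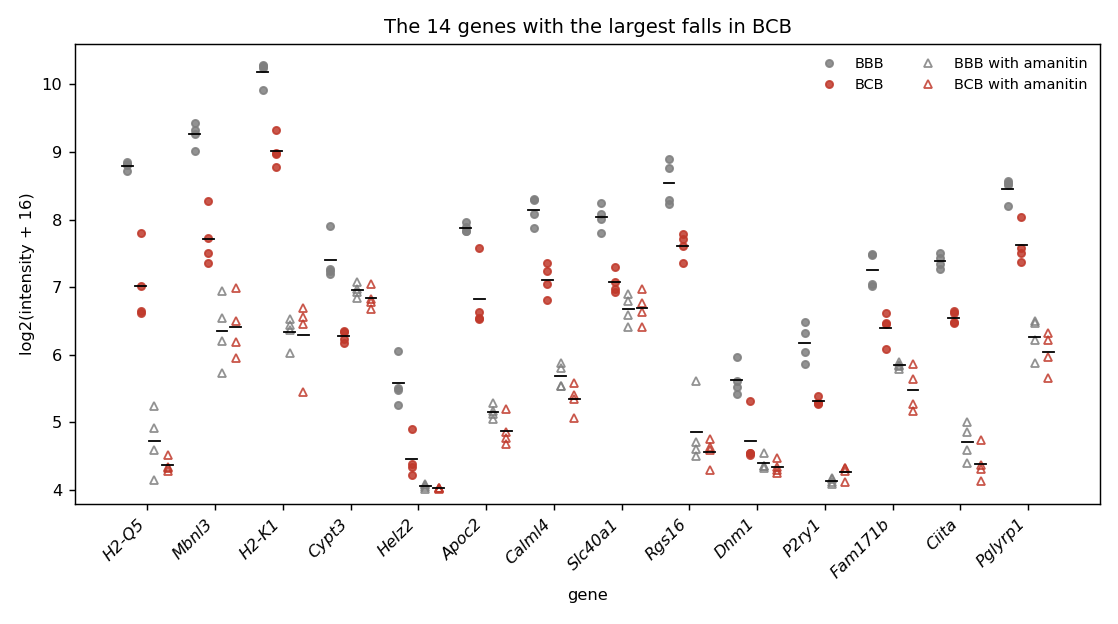
Points are single arrays of the 14 genes with the largest falls, as log2(intensity + 16) on the y axis: grey circles BBB, red circles BCB, open triangles the same kinds with α-amanitin, and black bars the mean of 4 arrays. In all 14 genes the 4 untreated BCB arrays lie below the 4 untreated BBB arrays, and H2-K1 falls from a mean of 1148.5 to 506.

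Among the other falls, named here after their values were seen, were genes of actin and adhesion proteins. Tmsb4x and Tmsb10 encode thymosins, which bind actin monomers. Tmsb4x read 182, 133, 156 and 184 in BBB and 78.9, 93.1, 113 and 97.4 in BCB, a difference of -0.69 (SE 0.14, adjusted p = 0.0187), and Tmsb10 differed by -0.50 (SE 0.10, adjusted p = 0.0145). Tes, a protein of focal adhesions, fell by 0.72 (SE 0.13, adjusted p = 0.00606). Limch1, which binds actin and myosin, fell by 0.69 (SE 0.15, adjusted p = 0.0235). Dimmer probe sets of these genes pointed the other way without a call, by 0.28 for Tes and by 0.21 and 0.05 for Limch1. Arhgap8 fell by 0.82 (SE 0.19, adjusted p = 0.047). Sgms1, which makes sphingomyelin, differed by -0.65 (SE 0.11, adjusted p = 0.00214). Dck, the first enzyme of deoxynucleoside salvage, fell by 0.76 (SE 0.17, adjusted p = 0.033). Nelfa, a subunit of the factor that pauses RNA polymerase II, fell by 0.53 (SE 0.11, adjusted p = 0.023). The zinc finger gene Zfp33b fell by 0.60 (SE 0.12, adjusted p = 0.0109), and lost the call without BCB array 2 (adjusted p = 0.0705) and with either control scaling (0.271 and 0.23). With 1 call higher and 1 lower among 300 tested Zfp genes, 0.667% were called.

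Of the 30 lists, 25 had 0 genes called by limma. Over all lists 10 of 1954 tested members were called, counting a gene once for each list it is in, which is 0.512% beside 0.655% of all genes, so a list of this size without a call is not a result about its genes. Among the 25 lists were the 24 tested genes of two-cell genome activation, with a median difference of -0.03 and 2 genes at an unadjusted p under 0.05, and the 44 oocyte and maternal-effect genes, with a median of 0.00 and 3 such genes. The 49 cytosolic ribosomal proteins had a median of 0.07 and 1 gene at an unadjusted p under 0.05, and the 89 genes of ribosome biogenesis a median of 0.04 and 4 such genes. Imprinted genes, which are expressed from one parental allele, also held no call. The 29 tested maternally expressed ones had a median of -0.03 and 1 gene at an unadjusted p under 0.05, and the 26 paternally expressed ones a median of -0.05 and 1 such gene. The other lists without a call covered pluripotency, maternal mRNA decay, Trim genes, translation, splicing, the proteasome, chaperones, oxidative phosphorylation, mitochondrial ribosomes, glycolysis and the citric acid cycle, cell cycle, DNA repair, chromatin modifiers, apoptosis and glutathione. Over all 25 lists the medians lay between -0.07 and 0.07, with 0 to 9 genes each at an unadjusted p under 0.05. The oocyte genes Zp3, Gdf9 and Dnmt1 differed by -0.04, 0.04 and -0.05, and the two-cell genes Eif1a, Hspa1a, Zfp352 and Duxf3 by -0.05, 0.23, -0.11 and -0.26, with adjusted p-values of at least 0.866. The imprinted genes Igf2r, Snrpn and Peg3 differed by 0.11, 0.02 and -0.02, with 95% confidence intervals of -0.21 to 0.43, -0.36 to 0.40 and -0.28 to 0.24. Over all 15257 genes, 7.07% had an unadjusted p under 0.05.

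Genes known to differ between inbred strains were looked at as a list of 26 tested genes, of which 0 were called by limma and 2 had an unadjusted p under 0.05. Glo1, the glyoxalase that varies in copy number between strains, read 95.3, 81, 65.5 and 82.7 in BBB and 133, 109, 134 and 122 in BCB, a difference of 0.54 (adjusted p = 0.271). Fitted on the 8 untreated arrays alone, the adjusted p of Glo1 was 0.0486. Nnt, the mitochondrial transhydrogenase, and Wdfy1 differed by 0.15 and 0.01 and were not called.

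A gene was read from its brightest tested probe set, by the mean over all 16 arrays. The other probe sets of the same gene give a second reading on the same arrays. Of the 59 genes called higher, 16 had 25 other tested probe sets. Among these 25, 11 were called higher too, 12 pointed the same way without a call, and 2 pointed the other way without a call. All 3 probe sets of Celf4 were called, and the other pair differed by 4.26 and 3.36. Ajap1 read 5.9, 9.8, 4.4 and 4.5 in BBB and 181, 419, 304 and 264 in BCB on its second probe set, a difference of 3.75. The second probe set of Mgll differed by 2.67, and its dimmest, at 12.4, 22.6, 12.7 and 16.7 in BBB and 12.3, 14, 18 and 9.1 in BCB, by -0.13. For the falls, 19 genes had 30 other probe sets, of which 4 were called lower, 17 pointed the same way, 8 the other way, and 1, that of H2-Q5, was called higher.

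Over all 31953 probe sets tested, 196 were called, which is 0.613% (0.376% higher and 0.238% lower). Besides the 100 that stand for genes and the further ones of the same genes, 15 in the same direction and 1 in the opposite one, 50 belonged to 41 genes not called on their brightest probe set, 25 had no gene symbol (0.573% of the tested probe sets of that kind) and 5 had several (0.684%). The largest of the 50 was a probe set of Pdxdc1, which encodes a protein resembling a decarboxylase. It read 6.2, 6.4, 12.1 and 6.5 in BBB and 456, 418, 362 and 359 in BCB, a difference of 4.12 (adjusted p = 4.73e-14). Probe sets of Etv3, a transcription factor, and of Ssr1, a subunit at the translocon, were higher by 1.75 and 1.69. A pair of probe sets of the splicing helicase Aqr were lower, by -1.19 and -1.04. These genes were chosen after their values were seen.

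One pair of neighbours on a chromosome was called, Ccdc126 and Fam221a, which follow each other in the RefSeq order of genes (assembly GRCm38.p6). Ccdc126 read 79.2, 142, 46.7 and 56 in BBB and 167, 282, 312 and 216 in BCB, a difference of 1.48 (SE 0.23, adjusted p = 0.000922), beside 2.50 for Fam221a. The other 98 called genes had no called gene beside them among the 15172 tested genes with a position. How many pairs genes in random order would give was not worked out, so no local effect can be read from this pair.

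With α-amanitin the estimated differences between the 2 kinds of embryo were closer to 0 for most of the 100 genes, which had been chosen by their untreated difference. The treated arrays are other samples than the untreated ones. Adding 16 to each intensity shrinks the difference of dim genes, and some of the 100 genes were dim with amanitin. Mgll had treated means of 4.55 in BBB and 33 in BCB, beside 43.6 and 335 untreated. Others were not dim there, such as Ipp, with treated means of 138.4 and 138.6. How much of the change came from the added 16 was not tested. For the 59 genes called higher the median difference was 1.18 untreated and 0.11 with amanitin, and for the 41 called lower it was -0.75 untreated and -0.12 with amanitin. The treated 95% confidence interval lay wholly below the untreated estimate in 56 of the 59 rises. In 36 of the 41 falls it lay wholly above that estimate. These counts leave out the SE of the untreated estimate, which was picked for its size, so they are not a test of a difference. Intervals on the other side of 0 are counted here too, as in Msantd1, at 1.02 untreated and -1.05 to -0.16 with amanitin. The sign was the same with amanitin in 40 of the 59 and in 33 of the 41. The treated groups did not overlap, in the same direction, for 9 of the 59 and 4 of the 41, beside 2.01% of all genes wholly higher and 1.65% wholly lower.

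The test of the difference itself, the interaction, called 39 genes, which is 0.256% of those tested (0.19% with a positive and 0.0655% with a negative value), 34 of them among the 100. Of these 34, 28 were rises that were larger untreated and 6 were falls that were larger untreated. The interaction holds the same untreated values that chose the 100 genes, so this overlap and its direction are partly built in. With a pseudocount of 1 it called 14 genes. Pdgfrl read 11.03 ± 0.82 in BBB and 11.8 ± 2.3 in BCB with amanitin (SD, n = 4), and its difference there was 0.04 against 4.36 untreated (interaction 4.33, adjusted p = 2.15e-10). Adcy2 differed by 0.58 with amanitin and was not called (adjusted p = 0.123), with 48.5 ± 4.2 in BBB and 80.1 ± 7.2 in BCB. F8 read 25.6 ± 10.8 in BBB and 28.2 ± 8.8 in BCB, with a difference of 0.10. For Mdga2 the treated difference was -0.28, against 2.36 untreated. Falls with a called interaction included Mbnl3, with 69.8 ± 29.98 in BBB and 71.8 ± 28.2 in BCB and a treated difference of 0.05, and Slc40a1, with 0.03.

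On the treated arrays H2-K1 read 65.7 ± 11.98 in BBB and 66.5 ± 26.6 in BCB, a difference of -0.05 (SE 0.20), beside means of 1148.5 and 506 untreated. For H2-Q5 the treated means were 11.4 ± 8.5 in BBB and 4.7 ± 1.6 in BCB, and all 4 treated BCB arrays and 2 of the 4 treated BBB arrays read it below their 40th percentile. The interaction of H2-K1 was -1.12 (adjusted p = 0.134) and that of H2-Q5 -1.42 (adjusted p = 0.0619), so for these 2 genes the treated difference was not called apart from the untreated one.

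Mgll, Cfap52, Limch1 and Arhgap8 were called in both comparisons, each in the same direction. They are 4 genes, which is 4% of the 100 genes called untreated and 33.3% of the 12 called with amanitin (0.0787% of the genes tested). In Mgll the treated arrays read 6.1, 2.3, 4.9 and 4.9 in BBB and 18.2, 35.8, 27.3 and 50.6 in BCB, a difference of 1.21 (adjusted p = 0.0203). Cfap52 read 1.4, 0.6, 3.7 and 8.1 against 13.7, 34.7, 27.6 and 21.8, a difference of 1.04 (adjusted p = 0.0452), and the interaction was 1.87 (adjusted p = 0.00243). The other two were falls. Limch1, on its brightest probe set, differed by -0.79 with amanitin and -0.69 without, and Arhgap8 by -0.96 and -0.82. Their interactions were 0.09 and 0.14, with adjusted p-values of 0.953 and 0.944. With amanitin 6 genes were called higher and 6 lower, 0.0393% each way, and these counts ranged from 4 to 21 and from 2 to 23 when 1 array was left out.

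**Figure D4:**
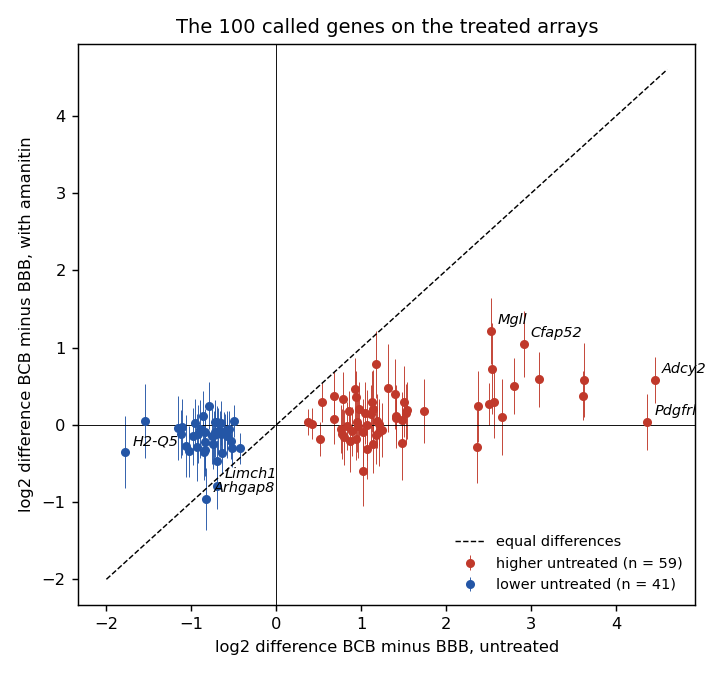
Each point is one of the 100 genes called between untreated BCB and BBB, with its untreated log2 difference on the x axis, its difference with α-amanitin on the y axis and the 95% confidence interval of the latter as a bar; the dashed line marks equal differences. Rises (red, n = 59) and falls (blue, n = 41) lie near 0 on the y axis, with medians of 0.11 and -0.12, and Limch1 and Arhgap8 lie close to the dashed line.

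The share of genes called was also set out by how many of the treated arrays detected the gene. Of 346 tested genes below the 40th percentile on all 8 treated arrays, 9 were called higher and 4 lower in untreated embryos, 2.6% and 1.16%. Of 10752 genes at or above it on all 8, 32 were higher and 31 lower, 0.298% and 0.288%. The 4159 genes in between held 18 rises and 6 falls, 0.433% and 0.144%. Genes that enter the 346 had to be seen on at least 4 untreated arrays to be tested at all, and the 4 arrays of either kind were enough. A gene seen in BCB and not in BBB, such as Gria1, could therefore enter through that very difference. The filter can raise the share called among the 346, so the shares of these classes cannot be compared.

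One untreated BCB array stood nearer to BBB than its group mates. Array 1 was the BCB array closest to the BBB mean in 46 of the 59 genes called higher, and in 23 of the 41 called lower, beside 25.7% of the 15157 genes not called. Its difference from the BBB mean was, at the median gene, 75.2% of that of the other BCB arrays among the rises and 78.7% among the falls. The ratio of 3′ to 5′ actin control probe sets, a measure of RNA quality and of labelling, was 9.56 on that array and 7.39 to 8.71 on the other 7. Its part in this position was not tested. Without array 1, 57 genes were called higher and 36 lower, of which 53 and 32 were among the 59 and the 41.

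**Figure D5:**
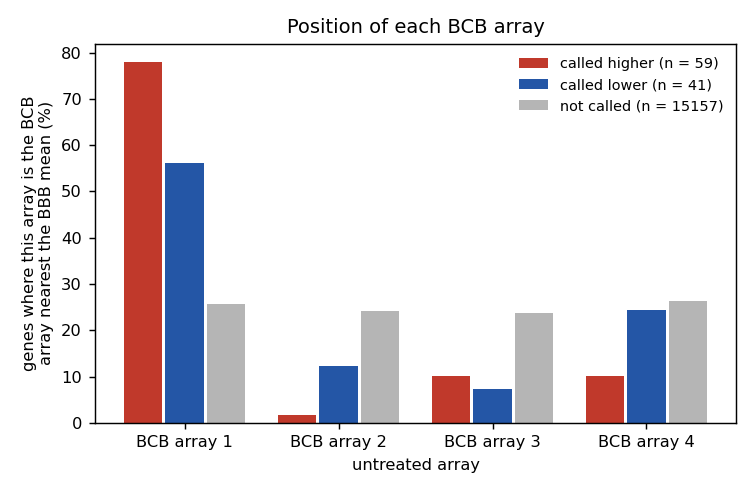
Bars give, for each untreated BCB array, the percentage of genes in which it was the BCB array nearest to the BBB mean: genes called higher in red (n = 59), called lower in blue (n = 41) and not called in grey (n = 15157). Array 1 was nearest in 46 of the 59 and 23 of the 41, and in 25.7% of the genes not called.

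Across genes, which are not independent replicates, arrays correlated at 0.985 to 0.989 within BBB, 0.988 to 0.990 within BCB and 0.981 to 0.987 between the groups. Of 8 measures per array, the mean log2 value differed by -0.12 for the hybridization controls, 0.11 for the poly-A controls and -0.23 for 18S ribosomal RNA, and the ratio of actin 3′ to 5′ signal was 7.77 ± 0.46 in BBB and 8.58 ± 0.75 in BCB (SD, n = 4). The lowest exact two-sided permutation p was 0.143. With 4 arrays against 4 it cannot be below 0.0286, or 0.229 for a single measure adjusted over 8, so this test says nothing of whether the groups were alike. The summed intensity of the two-cell genome activation genes was 36643 to 39711 on the BBB arrays and 35611 to 37926 on the BCB arrays, with none of 24 below the 40th percentile on all 8. Summed markers of cumulus and granulosa cells, which surround the oocyte, ranged from 2930 to 3679.6 over the BBB arrays and from 3478 to 4219.8 over the BCB arrays, with 0 of 15 tested called and 1 at an unadjusted p under 0.05. For transcripts carried by sperm the sums were 2263 to 2750.3 and 2269 to 2585, with 0 of 19 tested called and 0 at an unadjusted p under 0.05. Of the defining markers, Amh of granulosa cells read at most 2.3 on the 8 arrays while Foxl2 reached 71.3 in BBB and 55.3 in BCB. Of the sperm transcripts, Tnp2 read at most 5.1, while on their brightest probe sets Prm1 read 21.4 to 29.4 in BBB and 13.7 to 26.7 in BCB, Prm2 7.4 to 20.9 and 11.8 to 17.8, and Tnp1 3.9 to 14.5 and 2.2 to 12.7. The part of these cells in the differences was not tested.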

How the data were processed

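The 16 one-colour arrays, 4 per group, read total RNA of mouse embryos at the two-cell stage. Per the labels' protocols, the Picopure kit served for RNA extraction and an ENZO kit for the biotin label. The values the authors deposited are linear intensity values of 45037 transcript probe sets and of 64 controls. Each array's mean without the top and bottom 2% was 150.0, so arrays had been scaled, by software not given in the sources used here. Probe sets were named through the platform annotation. Of them, 34945 had 1 symbol, 932 several and 9160 none, and 34741 matched RefSeq by Entrez identifier.

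Values were taken as log2(intensity + 16). Probe sets entered the test if 4 or more of the 16 arrays read them no lower than the array's own 40th percentile, which left 31953 probe sets and 15257 genes, each gene read from its probe set with the highest mean. All 16 arrays entered 1 limma model (limma 3.58.1, R 4.3.3) with a mean per group, an intensity trend and Benjamini-Hochberg adjustment over all probe sets tested. The number of arrays limits the precision. In simulated data for untreated BCB against BBB, with 31953 probe sets, the fit recovered 17 of 67 probe sets changed by 0.5 (log2), 53 of 67 changed by 1 and 66 of 66 changed by 2, with 11 false among 147 calls. Array measures were compared with exact permutation tests (scipy 1.17.1).

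Named were the 14 largest rises and falls among called genes whose groups did not overlap, in each list with a call the most significant member per direction, and a fixed set: H2-K1, H2-D1, H2-Q10, Glo1, Nnt, Wdfy1, Xist, Igf2r, H19, Snrpn, Peg3, Zp3, Gdf9, Dnmt1, Eif1a, Hspa1a, Zfp352 and Duxf3, where tested. Clone names were counted and not named (8 among the called genes). The comparison, the 30 gene lists and the rule were chosen with earlier results of these data known. Alternatives were a minimum of 2-fold, array weights, a fit without the intensity trend, a replicate block, the 8 untreated arrays alone, averaged probe sets, a 60th percentile filter or none, pseudocounts of 1 and 64, median centring, quantile normalization and leaving out each array. Scaling to the 9 hybridization or 12 poly-A control probe sets was chosen after seeing the data.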

Additional observations from a re-analysis of the deposited data

Results flagged for a closer look

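Within a group of 4 arrays, 7 of 110 groups checked held an array that stood apart from its group mates, and chance gives about 1 in 20. BCB array 1 was the array in 4 of the 7. It was the lowest BCB array for Fam124a, at 152, for Prkch, at 94.5, and for Mgll, at 198.5, and the highest for Apoc2, at 176. BBB array 1 was the lowest of its group for H2-K1, at 948, and the highest for Cypt3, at 224.5. BCB array 4 was the highest of its group for Dnm1, at 24. In all 7 genes the groups did not overlap with these arrays included.

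The difference between BCB and BBB was not the same untreated and with amanitin by the interaction test of limma for 17 of the named genes. Most of these were named for their untreated difference, which enters this test. The untreated minus the treated log2 difference was 3.88 for Adcy2, 4.33 for Pdgfrl, 3.04 for Celf4, 3.23 for Sdhaf3, 2.51 for Fam124a, 1.87 for Cfap52 and 2.29 for Tmed11. It was 2.56 for F8, 2.27 for Ajap1, 2.23 for Fam221a, 2.13 for Frrs1, 2.64 for Mdga2 and 1.39 for Zfp618. Among the falls it was -1.59 for Mbnl3, -1.01 for Cypt3, -0.99 for Slc40a1 and -0.99 for P2ry1, with adjusted p-values of 0.038, 0.0456, 0.0472 and 0.0494.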

How the results depend on the processing

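All 14 of the largest rises kept their call and direction under every alternative run. Of the 14 largest falls, Cypt3, Calml4 and Slc40a1 did so and 11 lost the call in at least 1 alternative, in the same direction. No called gene among the named ones reversed. Of 649 results of 31 called named genes under alternatives, 598 kept the call and 51 lost it in the same direction, all in 14 genes. The 59 rises became 32 with a pseudocount of 1, 98 with 64, 102 with only the 8 untreated arrays, 118 with array weights, 39 with a minimum of 2-fold and 35 with scaling to the poly-A controls. The 41 falls became 18, 109, 124, 123, 7 and 21 under the same settings and 10 with scaling to the hybridization controls. Without 1 array the rises ranged from 44 to 58 and the falls from 21 to 36. List members called higher, 4 in all lists, became 15 with a pseudocount of 64, 15 with only the 8 untreated arrays, 14 with array weights and 1 with poly-A scaling. Those called lower, 6, became 3 with a pseudocount of 1, 15 with 64, 19 with the 8 arrays, 20 with array weights and 3 with either control scaling. Without 1 array both ranged from 4 to 6. With amanitin, genes called higher ranged from 4 to 21 and genes called lower from 2 to 23 without 1 array, from 6 each. The lower ones numbered 10 with median centring, 3 with no filter, 2 with the mean of probe sets and 2 with the replicate block. Interaction calls, 39, became 14 with a pseudocount of 1, 59 with 64 and 20 to 43 without 1 array. The cause of these changes was not tested.

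The labels do not say whether replicate numbers pair the samples, and pairing was not tested. Same-numbered arrays of BBB and BCB correlated at -0.06, 0.02, -0.09 and 0.11 in their deviations from the group means. Arrays of unlike number correlated at -0.16 to 0.15. With the number as a replicate block, 57 genes were higher, 43 lower and 32 called by the interaction, and with amanitin 4 were higher.

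Values that changed sign all belonged to genes that were not called. Xist differed by 8.72e-05, and by -0.00464 with a pseudocount of 1, -0.11 with poly-A scaling and -0.14 to 0.18 without 1 array. H2-D1 differed by -0.16, and by 0.23 with the mean of its probe sets. Eif1a differed by -0.0466, and by 0.15 with the mean of its probe sets, 0.0746 with hybridization scaling and -0.17 to 0.0218 without 1 array. Wdfy1 differed by 0.0139, and by -0.0966 with poly-A scaling and -0.0748 to 0.15 without 1 array. Snrpn differed by 0.0184, and by -0.0921 with poly-A scaling and -0.0886 to 0.13 without 1 array. Zp3 differed by -0.0422, and by 0.079 with hybridization scaling and -0.10 to 0.014 without 1 array. H2-Q10 differed by 0.0285, and by -0.082 with poly-A scaling and -0.063 to 0.10 without 1 array. Peg3 differed by -0.0201, and by 0.10 with hybridization scaling and -0.11 to 0.0347 without 1 array. Igf2r differed by 0.11, and by -0.000669 to 0.20 without 1 array. Dnmt1 differed by -0.0482, and by 0.073 with hybridization scaling and -0.11 to 0.00127 without 1 array. Zfp352 differed by -0.11, and by 0.00809 with hybridization scaling. Gdf9 differed by 0.0446, and by -0.0659 with poly-A scaling.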
